A study of Rattus norvegicus with 4 samples.

Results

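The 9 rat genes described here encode the enzymes of catecholamine synthesis (Th, Ddc and Dbh) and the genes that make, recycle or regulate tetrahydrobiopterin, the cofactor of tyrosine hydroxylase (Gch1, Gchfr, Pts, Spr, Qdpr and Pcbd1). They were taken by RefSeq accession from Agilent rat arrays, where 7 of the 9 had a probe, 1 each, out of 36864 genes and other transcripts with a usable probe. Spr and Pcbd1 had no probe matched by accession and have no values here. Pathway membership set the list, but the group of genes was chosen by differences of the same comparison, those of Th and Ddc. The values of the members are thus given as a description. Where calls of members in the fit over all genes are stated below, they are no test of these genes.

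Total RNA came from PC12, a rat line grown from a pheochromocytoma, which is a tumour of the adrenal medulla. The line is known for its defective Max gene, whose protein pairs with MYC to bind DNA. One line carried a plasmid coding for MAX (MAX vector, 2 arrays) and the other an empty vector (empty vector, 2 arrays), both after transfection by nucleofection and selection with E418, as the labels spell it. Each group is a single transfected line sampled at passages 8 and 13, and the labels do not say which replicate number is which passage. All spread between replicates given below is thus spread within a line. In RNA of whole cultures, fewer cells expressing a gene and less RNA per cell cannot be told apart.

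Tyrosine hydroxylase (Th) converts tyrosine to L-DOPA in the rate-limiting step of catecholamine synthesis, aromatic L-amino acid decarboxylase (Ddc) turns L-DOPA into dopamine, and dopamine beta-hydroxylase (Dbh) turns dopamine into noradrenaline inside secretory vesicles. Tyrosine hydroxylase needs tetrahydrobiopterin. GTP cyclohydrolase I (Gch1), 6-pyruvoyltetrahydropterin synthase (Pts) and sepiapterin reductase (Spr) build that cofactor from GTP, while pterin-4a-carbinolamine dehydratase (Pcbd1) and quinoid dihydropteridine reductase (Qdpr) return it to its reduced form after each round of hydroxylation. The GTP cyclohydrolase feedback regulator (Gchfr) binds GTP cyclohydrolase I and lets tetrahydrobiopterin restrain it. In rat chromaffin cells the Th gene is known to respond to cAMP through an element close to its start.

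The start regions of Th and Ddc are shown because these are the 2 members whose arrays separated clearly between the groups, and because MAX acts through a DNA element, the E-box. The windows run from 250 bases before to 50 bases after a transcription start in RefSeq annotation of build GRCr8, and all 9 genes had at least 1, with 3 for Ddc. They are printed 5′ to 3′ on the gene's strand. Capitals mark each match to CACGTG (the E-box that MYC and MAX prefer), CANNTG (any E-box, which includes CACGTG), TGACGTCA (the cAMP response element) or TGANTCA (an AP-1 site), searched on both strands.

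Th, chr1:207508169-207508468, minus strand: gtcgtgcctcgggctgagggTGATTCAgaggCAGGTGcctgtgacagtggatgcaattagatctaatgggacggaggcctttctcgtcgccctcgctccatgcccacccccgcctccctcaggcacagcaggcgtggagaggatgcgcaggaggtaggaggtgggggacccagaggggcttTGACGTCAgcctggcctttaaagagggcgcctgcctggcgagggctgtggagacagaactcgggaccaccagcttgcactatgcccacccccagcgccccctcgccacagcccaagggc
Ddc, upstream start, chr14:90682734-90683033, minus strand: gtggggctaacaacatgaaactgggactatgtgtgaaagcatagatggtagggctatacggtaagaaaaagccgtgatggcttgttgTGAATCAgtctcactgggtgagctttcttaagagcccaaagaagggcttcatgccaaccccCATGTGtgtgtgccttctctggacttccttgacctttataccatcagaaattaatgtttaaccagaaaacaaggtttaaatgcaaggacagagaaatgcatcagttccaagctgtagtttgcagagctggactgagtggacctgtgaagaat
Ddc, middle start, chr14:90675577-90675876, minus strand: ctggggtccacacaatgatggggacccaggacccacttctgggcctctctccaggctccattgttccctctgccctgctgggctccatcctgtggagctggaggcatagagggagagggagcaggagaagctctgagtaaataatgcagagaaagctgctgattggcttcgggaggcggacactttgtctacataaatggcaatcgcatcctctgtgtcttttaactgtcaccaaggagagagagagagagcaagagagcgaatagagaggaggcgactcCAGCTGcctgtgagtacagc
Ddc, downstream start, chr14:90665771-90666070, minus strand: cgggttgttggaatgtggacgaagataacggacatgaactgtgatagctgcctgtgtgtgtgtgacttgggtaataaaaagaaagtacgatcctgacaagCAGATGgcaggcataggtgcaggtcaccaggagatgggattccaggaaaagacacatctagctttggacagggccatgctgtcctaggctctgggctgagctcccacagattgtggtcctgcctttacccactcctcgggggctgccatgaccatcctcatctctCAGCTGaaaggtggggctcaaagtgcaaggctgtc

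The Th window held the cAMP response element with its first base at position -69, an E-box of the form CAGGTG at -219 and an AP-1 match at -230, counted from the annotated start. The cAMP response element occurs in 1.83% of 33469 such windows of the rat genome and the AP-1 match in 7.33%. Each Ddc window held 1 or 2 E-boxes of the general form, which 72.1% of all windows hold. The upstream Ddc window also held an AP-1 match, at -163. CACGTG was found in none (0) of the 11 windows of the 9 genes, and in 6.42% of all windows. No match says only that these letters are not in these windows. The windows of Gch1, Gchfr, Pts, Spr, Qdpr and Pcbd1 were rich in CpG, with 15 to 31 CpG dinucleotides each against a median of 7 over all windows; Th had 15, Dbh had 5, and the Ddc windows had 2 to 5.

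Signals are Agilent processed intensities. The log2 values are relative to each array's 75th percentile, so 0 is the level that 75% of the array's probes stay below. Between 26377 and 28471 probes were well above background on a MAX vector array, and 28193 to 29284 on an empty vector array. The 2 replicates of a group differed, over 25356 genes tested, by a median log2 value of 0.152 with MAX vector and 0.12 with empty vector. The array's probe for Max read near the floor everywhere, at -7.61 and -7.94 in MAX vector and -8.35 and -8.07 in empty vector, well above background on 0 arrays. Whether that probe can read the plasmid's transcript was not examined, so it does not check the labels. MAX vector replicate 1 lies alone on its slide, and the other 3 arrays share a slide.

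Chromaffin markers were only in part detected in these cultures. Of 18 listed, 15 had a named probe and 10 were well above background on all 4 arrays, among them Th, Ddc, Phox2a, Hand2 and Ngfr. Syp, which encodes the vesicle protein synaptophysin, was well above background on no array. Dbh and Slc18a1 (a vesicular monoamine transporter gene) were so on 1 MAX vector array and 2 empty vector arrays. Scg2 (which encodes secretogranin II) was so on 1 array of each group, and Ret (a receptor gene) on 0 MAX vector and 2 empty vector arrays. Of the 12 chromaffin markers tested other than Th and Ddc, 7 were lower on both MAX vector arrays, where 26.0% of all genes were, and 0 were higher, where 24.3% were. Ret, among the 7, entered the test only through the empty vector arrays, the group where it is higher, so its place in that count was favoured by the filter. The summed level of the markers with a probe other than Th and Ddc, each gene as a multiple of the 75th percentile, was 4.02 and 3.96 in MAX vector against 5.03 and 5.33 in empty vector. With Th and Ddc the sum was 12.9 and 12.7 in MAX vector against 21.7 and 22.0 in empty vector, a gap that is nearly all Ddc. All 10 listed epithelial markers, 7 keratin genes with Cdh1, Epcam and Tp63, were well above background on all 4 arrays. Summed in the same way they came to 30.9 and 31.2 in MAX vector against 12.8 and 14 in empty vector. In limma 4 of the 10 (Krt13, Krt15, Krt19 and Tp63) passed an adjusted p of 0.05, all higher, where 0.576% of all genes passed as higher. As with Th, 9 of the 10 were higher on both MAX vector arrays, and Krt14 overlapped. On these markers the identity of the cultures as a chromaffin line is in doubt, and it was not tested. The sum over 5 of 8 leukocyte markers with a named probe was 9.11 and 8.84 in MAX vector against 4.88 and 5.6 in empty vector. Nearly all of it was Cd14, without which the sum was 0.692 and 1.18 in MAX vector against 0.631 and 0.718 in empty vector. Of the 4 leukocyte markers tested in limma 0 passed, and 2 had an unadjusted p under 0.05, as did 16.1% of all genes. Fibroblast markers summed to 138 and 147 in MAX vector against 132 and 145 in empty vector, nearly all Col3a1. Without it they came to 3.61 and 3.54 in MAX vector against 5.5 and 6.08 in empty vector, and of the 4 others tested Lum, Thy1 and Col1a2 were lower and Dcn higher on both MAX vector arrays. The endothelial sum was 0.0764 and 0.11 in MAX vector against 0.0265 and 0.0281 in empty vector, almost all from the receptor gene Kdr, with a difference of 1.98 ± 0.23 (adjusted p = 0.0699 in limma). Adrenal cortex and glial markers each summed to under 1 on every array. The cortical enzyme genes Cyp11b1, Cyp11b2 and Cyp21a1 were well above background on no array. The part of these markers in the values below was not tested.

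Th had the widest difference of the 7 genes. Its probe, for the transcript NM_012740, is spotted 10 times on each array, and the spot average was 665 and 704 signal units in MAX vector against 182 and 143 in empty vector. Both MAX vector arrays were far above both empty vector arrays. On the log2 scale the values were 0.18 and 0.08 in MAX vector against -1.94 and -2.09 in empty vector, which places Th just above the 75th percentile of the MAX vector arrays and well below that of the empty vector arrays. The difference was 2.15 ± 0.11 (SE, n = 2 arrays per group), or 4.42-fold. The gap between the nearest arrays of the groups was 2.02, while replicates differed by 0.09 in MAX vector and 0.16 in empty vector. Within the slide that holds both groups the difference was 2.1.

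**Figure D1:**
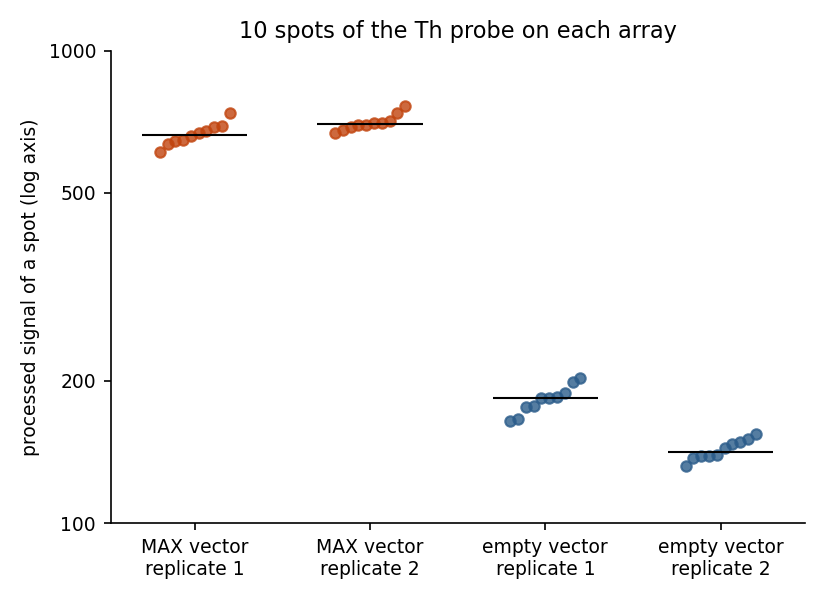
Processed signal of each of the 10 spots of the Th probe (log axis) on the 2 MAX vector and the 2 empty vector arrays, before scaling between arrays; lines are medians. The lowest MAX vector spot is at 610 and the highest empty vector spot at 203, so the spots of the groups do not overlap.

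The repeated spots show how precisely an array read this transcript. In MAX vector replicate 1 the 10 spots ran from 610 to 738 with a median of 664, and in MAX vector replicate 2 from 669 to 763 with a median of 699. In empty vector replicate 1 they ran from 164 to 203 with a median of 184, and in empty vector replicate 2 from 132 to 154 with a median of 142. The SD over spots was 0.076 and 0.056 on the log2 scale in MAX vector and 0.098 and 0.07 in empty vector. Spots of an array share its RNA and are not replicates, so these figures give the reading error alone. For the mean of 10 spots that error was 0.018 to 0.031 (SE), under the difference between replicates and far under the difference between groups.

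Ddc, which acts on the product of tyrosine hydroxylase, lay on the other side. Its probe, for NM_012545, gave 4574 and 5117 signal units in MAX vector against 11429 and 10027 in empty vector. The groups did not overlap. The log2 values were 2.96 and 2.94 in MAX vector against 4.03 and 4.04 in empty vector, a difference of -1.08 ± 0.08 (SE, n = 2 per group), which leaves 47.2% of the empty vector level. Replicates of Ddc differed by 0.01 or less in each group, the closest of the 7 genes, and within the slide that holds both groups the difference was -1.09. The rat Ddc gene has several annotated starts, as the windows above show, and 1 probe does not tell which of them gave the signal.

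Dbh, the third enzyme, was near the floor of the arrays. Its single spot read 2.56 and 14.1 signal units in MAX vector against 25 and 11 in empty vector, and MAX vector replicate 1 was not well above background. On the log2 scale these were -7.84 and -5.56 in MAX vector against -4.8 and -5.79 in empty vector. MAX vector replicate 2 lay between the empty vector arrays, so the groups overlapped. The difference of -1.41 ± 0.89 was within the spread, since replicates alone differed by 2.28 in MAX vector and 0.99 in empty vector. Without MAX vector replicate 1, which is also the value within a slide, it was -0.27, without MAX vector replicate 2 it was -2.55, and with normexp, a background correction that adds 50 signal units to every signal, it was -0.22.

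**Figure D2:**
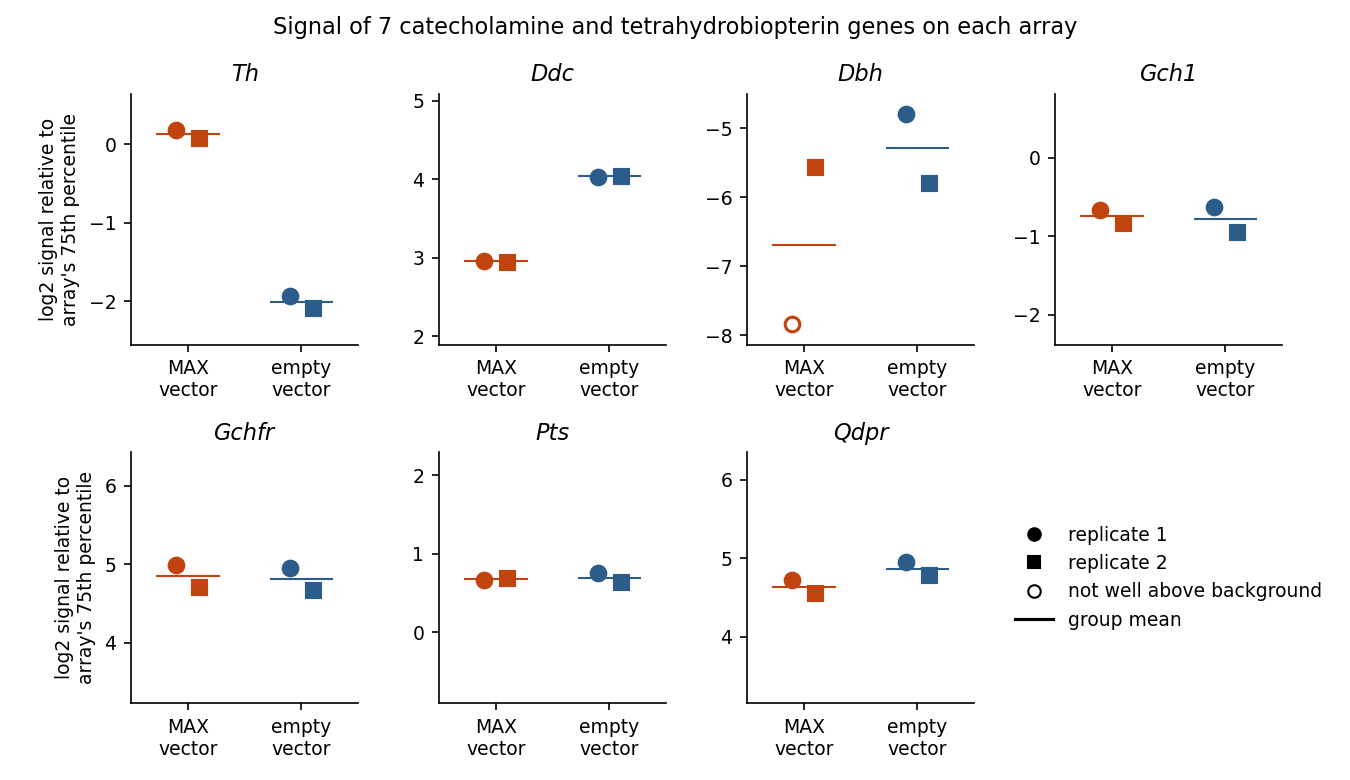
Log2 signal relative to the array's 75th percentile of the 7 genes with a probe, with the MAX vector arrays left of the empty vector arrays in each panel; each point is an array, lines are group means, and the axes span at least 3.2 units. Th is higher and Ddc lower on both MAX vector arrays, Dbh is scattered with MAX vector replicate 1 at -7.84 not well above background, and the cofactor genes lie at nearly the same level in both groups.

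Since both signals come from the same array, the ratio of Th to Ddc signal does not depend on the scaling between arrays. It differed by 3.23 on the log2 scale between MAX vector and empty vector, 9.38-fold, and by 3.11 to 3.35 in the 4 pairings of a MAX vector with an empty vector array. The ratio itself compares 2 probes and is no ratio of transcripts, so its change between groups is what is given. Measured the same way, the ratio of Th to Qdpr differed by 2.37, with 2.33 to 2.41 in the pairings, and that of Ddc to Qdpr by -0.86, with -1.02 to -0.7.

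Of the genes that supply the cofactor, Gch1, the entry enzyme, had 372 and 373 signal units in MAX vector against 454 and 318 in empty vector. On the log2 scale it had -0.66 and -0.83 in MAX vector against -0.62 and -0.94 in empty vector. The MAX vector values lay within the range of the empty vector values. The difference was 0.03 ± 0.15 (SE, n = 2 per group), and the ratio of Th to Gch1 signal differed by 2.11 on the log2 scale, with 1.99 to 2.23 in the pairings. Gchfr, the partner that restrains the cyclohydrolase, had log2 values of 4.99 and 4.71 in MAX vector against 4.95 and 4.67 in empty vector, a difference of 0.04 ± 0.16. As for Gch1, the groups overlapped. The ratio of Gch1 to Gchfr differed between groups by -0.08 to 0.08 in the 4 pairings.

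Pts, the next enzyme of the synthesis, had 0.67 and 0.69 in MAX vector against 0.75 and 0.64 in empty vector on the log2 scale. The groups overlapped, with a difference of -0.01 ± 0.09. Qdpr, which recycles the oxidised cofactor, had 15545 and 15691 signal units in MAX vector against 21626 and 16837 in empty vector. Its log2 values were 4.72 and 4.56 in MAX vector against 4.95 and 4.79 in empty vector. Both MAX vector arrays were lower than both empty vector arrays, but by a gap of only 0.06 where replicates differed by 0.16 and 0.17. The difference of -0.23 ± 0.12 was 85.4% of the empty vector level, and the arrays overlapped when scaled by their medians.

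**Figure D3:**
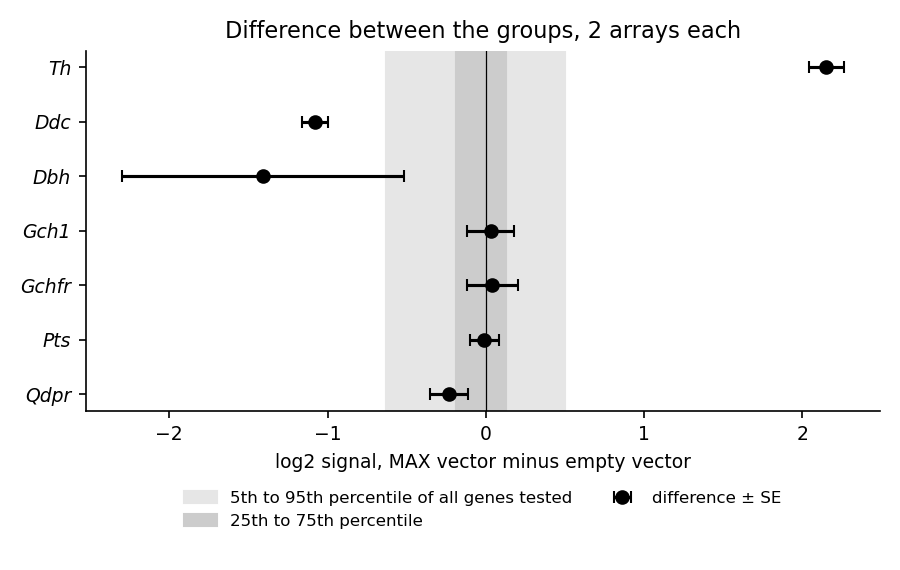
Difference in log2 signal, MAX vector minus empty vector, of the 7 genes (points, with the SE of the fit over all genes, n = 2 arrays per group); shaded bands run from the 25th to the 75th and from the 5th to the 95th percentile of all 25356 genes tested. Th, Ddc and Dbh lie outside the wider band of -0.63 to 0.5, Dbh with the widest error, and the 4 cofactor genes lie inside it.

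The 7 genes were also set beside all genes tested. The median difference of the members was -0.01, beside -0.019 for all genes tested. Th, Ddc and Dbh differed by over 0.5 on the log2 scale, as did 12.8% of all genes. In the fit over all genes, 1 member (Th) passed an adjusted p of 0.05 in limma as higher, where 0.576% of genes did, and 1 (Ddc) as lower, where 0.264% did. These 2 calls led to the choice of the members, and nothing is read from their number. When any 1 array was dropped, the difference of Th stayed between 2.07 and 2.22 and that of Ddc between -1.09 and -1.08. Such a fit has 1 array in a group, so its calls cannot tell whether either gene depends on that array. By the plain order of the arrays, 1 member lay higher on both MAX vector arrays and 2 lay lower (Ddc and Qdpr), while 24.3% and 26.0% of all genes did so; 4 overlapped. In the order of all differences, 120 genes had a higher value than Th and 359 a lower value than Ddc.

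Genes around the pathway were followed in 6 lists, which hold 75 distinct genes tested beside the members. In limma 0 of the 75 passed an adjusted p of 0.05 over all genes, 19 had an unadjusted p under 0.05, as did 16.1% of all genes, and 41 had arrays that did not overlap, beside the 24.3% higher and 26.0% lower of all genes given above. With normexp 8 of the 75 passed, 4 higher (Nr4a1, Junb and Aldh1a1 among them) and 4 lower (Fos, Fosl1, Jund and Phox2a), where 1.68% of all genes passed as higher and 1.43% as lower. With only probes well above background on all 4 arrays, 3 of 70 passed, all lower (Fos, Jund and Phox2a), where 0.898% of all genes did.

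Of the genes of catecholamine storage, uptake and breakdown 9 of 15 were tested, with a median difference of -0.07. Slc18a2, which encodes the vesicular monoamine transporter 2, had -0.08 and -0.07 in MAX vector against 0.13 and 0.1 in empty vector, a difference of -0.19 ± 0.08 (adjusted p = 0.373). Aldh1a1, an aldehyde dehydrogenase gene, had 0.98 ± 0.16 (adjusted p = 0.114), and Adra2a, an adrenergic autoreceptor gene, -0.23 ± 0.19 (adjusted p = 0.602). These genes lay on both sides of 0, as the enzymes of synthesis did.

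Few other users of the cofactor were measurable. Of 9 listed genes, 6 had a named probe and 2 were tested. The tryptophan hydroxylase gene Tph2 and the nitric oxide synthase genes Nos1 and Nos2 were well above background on no array. Nos3, the endothelial nitric oxide synthase gene, had a difference of 0.52 ± 0.09 (adjusted p = 0.124). Dnajc12, which encodes a chaperone of the aromatic hydroxylases, had -1.79 and -1.84 in MAX vector against -1.58 and -1.63 in empty vector, a difference of -0.21 ± 0.09 (adjusted p = 0.365). Unlike Th, it was the lower on both MAX vector arrays.

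The genes listed for salvage and side routes of the cofactor differed little, with a median of -0.02 over 4 genes tested. The carbonyl reductase genes Cbr4 and Cbr1 had 0.4 ± 0.11 (adjusted p = 0.223) and 0.03 ± 0.09 (adjusted p = 0.882). The aldose reductase gene Akr1b1 had -0.07 ± 0.11 (adjusted p = 0.788). The 11 tested genes that supply pyridoxal phosphate to Ddc, copper and ascorbate to Dbh, or tyrosine to the cell had a median of -0.06. Among them the amino acid transporter gene Slc7a5 had -0.43 ± 0.09 (adjusted p = 0.158), the copper transporter gene Slc31a1 -0.35 ± 0.35 (0.669) and the ascorbate transporter gene Slc23a2 0.28 ± 0.23 (0.606).

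Signals of the 18 tested kinase, phosphatase and 14-3-3 genes, whose proteins act on tyrosine hydroxylase, differed over a narrow range, from -0.48 to 0.22. Its lower end was Ppp2r2c, a regulatory subunit gene of protein phosphatase 2A, at -0.48 ± 0.11 (adjusted p = 0.181). The calmodulin-dependent kinase gene Camk2b, not well above background on 1 MAX vector array, had -0.41 ± 0.26 (adjusted p = 0.513) and the 14-3-3 gene Ywhah -0.29 ± 0.1 (adjusted p = 0.308). Its upper end was Prkar1a, a regulatory subunit gene of protein kinase A, at 0.22 ± 0.12 (adjusted p = 0.449), with the kinase gene Mapkapk5 at 0.06 ± 0.11 (adjusted p = 0.805).

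Transcription factors known to act on the Th gene had a wider range, from -0.81 to 0.9 over 32 tested genes, with a median of -0.03. Nr4a1, an immediate early gene for a nuclear receptor, had log2 values of 2.93 and 3.16 in MAX vector against 1.98 and 2.32 in empty vector, a difference of 0.9 ± 0.17 (adjusted p = 0.137). Junb, for a subunit of AP-1, had 0.72 ± 0.22 (adjusted p = 0.256). Fos, for another AP-1 subunit, had 0.23 and 0.1 in MAX vector against 0.9 and 1.06 in empty vector, a difference of -0.81 ± 0.11 (adjusted p = 0.0884). For Epas1, the gene of the hypoxia-inducible factor HIF2α, the difference was -0.81 ± 0.22, with log2 values of -2.76 and -3.24 in MAX vector against -2.03 and -2.35 in empty vector (adjusted p = 0.234). The arrays of the groups did not overlap for any of these 4, 2 of which lay higher and 2 lower. They were named as the largest differences in each direction, so little else could be seen. Of all 32 tested, 7 lay higher and 11 lower on both MAX vector arrays, beside 24.3% and 26.0% of all genes.

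**Figure D4:**
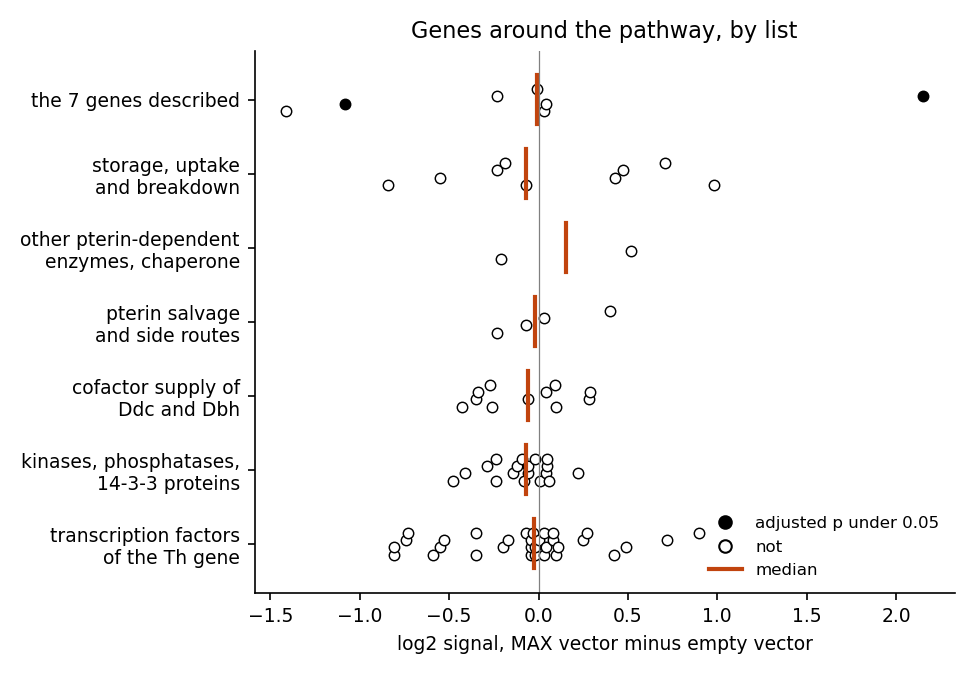
Difference in log2 signal, MAX vector minus empty vector, of the 7 genes described (top row) and of the tested genes of 6 surrounding lists; each point is a gene, filled where its adjusted p was under 0.05 in limma, and bars are medians. Only Th and Ddc are filled, and Th at 2.15 lies beyond every gene of the 6 lists, whose highest value is 0.98.

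The genes whose 4 array values followed Th most closely were sought among 5789 other genes with a symbol that were well above background on all arrays, by the root mean square distance between values centred on their own mean. The nearest were Rassf9 (distance 0.065 on the log2 scale), Mall (0.107), Ets1 (0.129) and Mgp (0.161). Ets1, which encodes a transcription factor, had -0.87 and -0.76 in MAX vector against -2.75 and -2.78 in empty vector. Mgp, which encodes matrix Gla protein, had -3.76 and -3.57 in MAX vector against -5.43 and -5.77 in empty vector. For Ddc the nearest were Sema3a (0.043), a secreted guidance signal gene, Nfia (0.06), a transcription factor gene, Acot1 (0.072), a thioesterase gene, and Tagln (0.072), which encodes transgelin. Sema3a had -2.38 and -2.49 in MAX vector against -1.35 and -1.29 in empty vector. With 4 arrays in 2 groups, a near profile says little beyond a group difference of like size.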

How the data were processed

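Total RNA of 4 PC12 cultures was hybridised to one-colour Agilent arrays. The deposited scanner files hold spot intensity, background-subtracted and detrended within the array but not scaled between arrays, written by Feature Extraction 10.7.3.1 per the file headers. The authors also deposited a table of log2 values with each probe centred on an unknown baseline. Differences between its columns matched the values used here (SD of the disagreement 4.3e-07).

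Spots with an outlier flag (89 to 140 on an array) were left out. A probe's value is the mean log2 processed signal of its spots, less the 75th percentile of all probes on that array. A probe counted as well above background where at least 50% of its spots did. The test took genes with a probe that passed so on at least 2 of 4 arrays, and for each gene its brightest probe, which gave 25356 genes, 6316 of them with a symbol. Symbols came from RefSeq accessions in the files through the GRCr8 gene table; Sprr1a, an older holder of the name Spr, was not taken as Spr. The comparison used limma 3.58.1 (lmFit, then eBayes, R 4.3.3, 3.94 degrees of freedom, Benjamini-Hochberg, threshold 0.05). The SE shown is that of this fit. The code was also run on data simulated from the fit's own spread with independent arrays, which cannot check those assumptions on the real arrays.

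The members, lists and tests were chosen with earlier results of these data known. In each list, every gene that passed and the 2 largest differences in each direction well above background on all arrays are named, with the 4 nearest profiles of Th and of Ddc; some genes that fall under this rule are not reported here, and the other genes named were chosen after their values were seen. Alternatives changed the background correction, scaling, probe filter, probe choice, block or replicates. The headers place 3 arrays on a slide and 1 on another. With 4 arrays, their number limits the precision. The main fit had no replicate block, since the labels do not say which passage a replicate number is. Differences of replicate 1 minus 2 showed no correlation between the groups (-0.0178 across genes).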

Additional observations from a re-analysis of the deposited data

How the results depend on the processing

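Under 13 alternatives Th kept a difference of 1.75 to 2.22 on the log2 scale and Ddc one of -1.09 to -0.98. The lowest Th value, 1.75, and the Ddc value nearest to 0, -0.98, came with normexp on the spot medians, which was chosen after seeing the data because the planned mean signals are not in the files. Ddc had -1.07 with quantile normalization, -1.06 with median scaling and -1.09 with the slide as a block, which leaves out the lone array of its slide. Without each replicate in turn Ddc ran from -1.09 to -1.08. Th passed an adjusted p of 0.05 in limma in 7 and Ddc in 6 of the 13, and Dbh, Gch1, Gchfr, Pts and Qdpr in 0. With no filter on dim probes or with the replicate block 0 of all genes passed, so neither gene could pass there. Th and Ddc were chosen by this comparison, so the counts of 7 and 6 only describe the settings. Nor are the 13 independent. The authors' table holds the same differences, and the mean of a gene's probes leaves the values of members with 1 probe unchanged. The slide block repeats the fit without MAX vector replicate 1. The signs of Gch1, Gchfr and Pts turned in 4, 3 and 3, and those of Dbh and Qdpr in 0 (of 12 and 13).

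The counts over all genes (146 higher, 67 lower) depended on the setting. They were 427 and 363 with normexp, 341 and 200 with median scaling, and 314 and 205 with only probes well above background on all 4 arrays. With no filter on dim probes they were 0 and 0 (4044 at an unadjusted p under 0.05), and with the slide as a block 10 and 0. With the replicate block 0 genes passed in either direction (3890 at an unadjusted p under 0.05). Leaving out each replicate gave 0 to 78 higher and 0 to 89 lower; without empty vector replicate 1 or 2 both counts were 0 (1966 and 2453 at an unadjusted p under 0.05), and without MAX vector replicate 1 they were 10 and 0. The cause was not tested.

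When a replicate was left out, the arrays that remained were compared, which leaves 1 array in that group and makes overlap less likely. Members higher on every remaining MAX vector array then numbered 1 to 4, with 4 without empty vector replicate 1 and 2 without MAX vector replicate 2. Members lower in the same way numbered 2 to 5, with 5 without empty vector replicate 2. The shares over all genes at these settings are not given, so nothing is read from these counts. With all 4 arrays and median scaling, 1 member was lower on both MAX vector arrays, and Qdpr overlapped. The dim signal of Dbh limits what can be said of it.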
